A study of Mus musculus with 21 samples.

Results

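The change of the sciatic nerve transcriptome between postnatal day 4 (P4) and day 60 (P60) was measured in Trembler mice, which carry a mutation in the gene of the peripheral myelin protein Pmp22. The comparison used 5 of the 21 arrays of the study, taken by their labels: 3 of Trembler nerve at P4 and 2 at P60. Each array held RNA from sciatic nerves pooled from 4 to 7 mice, amplified in 2 rounds of in vitro transcription. The other arrays held wild type nerve (3 arrays at P4 and 3 at P60), nerve of homozygous Pmp22 null mice (3 and 2) and nerve of mice with a Pmp22 transgene (3 and 2). The labels of the Trembler arrays name no other allele or agent and give neither the strain nor the sex of the animals. They also do not say whether 1 or both copies of the gene were mutant, so no more than the presence of the mutation is used here. The series title calls the Pmp22 mutation a point mutation.

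In the days after birth Schwann cells of the mouse sciatic nerve leave the cell cycle, take up axons one by one and wrap them in compact myelin. Transcription factors such as Sox10, Pou3f1 and Egr2 drive this step, and the making of membrane draws on the synthesis of cholesterol and fatty acids. Trembler mutant Pmp22 protein is known to be retained inside the cell, and the nerves of Trembler mice are known to be thinly myelinated. Endoneurial fibroblasts, macrophages, endothelial cells and, around the nerve, perineurial cells and fat also add RNA to a whole nerve sample.

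The values were the authors' model-based expression index of each probe set, a fluorescence intensity on a linear scale, with an array median between 181 and 210 on the 5 Trembler arrays. Index values were raised to a floor of 54.7 and put on a log2 scale. Where all arrays of a group lay at the floor, a change is given as "at least". The number of arrays limits the precision, and an error given after ± is the standard error of a log2 change in the limma fit. Adjusted p-values come from the same fit over 10994 probe sets, and a transcript was called when its adjusted p was under 0.05. "Rose" and "fell" are used of called transcripts. For each transcript whose values are listed, the P60 Trembler arrays lay outside the range of the P4 Trembler arrays unless an overlap is stated. Because the tissue was measured in bulk, fewer cells of a type and less RNA per cell cannot be told apart.

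The labelled tissue was checked on the Schwann cell markers Pmp22, Mbp and Mag. Pmp22, the mutated gene, read 6778, 7383 and 5875 at P4 and 5637 and 5469 at P60, and Mbp (myelin basic protein) read 4222, 4808 and 4272 at P4 and 2996 and 3881 at P60. Both were among the bright probe sets of each Trembler array. The change of Pmp22 was not called (log2 change −0.26 ± 0.12, adjusted p = 0.175, against −0.06 ± 0.11 in wild type), and the mutation leaves the transcript in place, so its level checks no label. A second, dim Pmp22 probe set gave −0.10 ± 0.23.

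3 features of the arrays bear on all that follows. Xist, which is transcribed from the inactive X chromosome of females, read 1111, 1192 and 942 at P4 and 7.61 and 3.47 at P60, where every other array of the study lay between 144 and 2228. Xist fell by 4.30 ± 0.75 on the log2 scale (adjusted p = 0.00125), a lower bound since both P60 arrays lay at the floor. The Y-linked Eif2s3y read 27.7, 3.71 and 23.4 at P4 and 255 and 85.4 at P60. A second Y-linked gene, Kdm5d, did not follow: near the floor, it read 61.1, 60.7 and 53.8 at P4 and 36.7 and 26.9 at P60. The part of the sexes in the pools in the other changes was not tested. No scan day held Trembler arrays of both ages, so age and scan day cannot be told apart within Trembler. The 2 P60 arrays differed from each other by a median of 0.305 on the log2 scale, and 8.3% of the tested probe sets differed between them by more than 1. On the first principal component of all arrays (36.8% of the variance) the P60 Trembler arrays lay at 27.9 and 20.8, between the P4 Trembler arrays (−32.9 to −22.5) and the P60 wild type arrays (37.4 to 42.3).

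Between P4 and P60, 1321 of the 10994 probe sets changed in Trembler nerve (12.0%). 883 rose (8.03%) and 438 fell (3.98%). The change was above 1 on the log2 scale for 548 of those that rose and below −1 for 191 of those that fell. The arrays of the 2 ages did not overlap for 1312 of the 1321, where over all tested probe sets 19.2% lay higher and 14.7% lower without overlap. Rises outnumbered falls less after quantile normalization, with 769 against 638, and after median scaling, with 803 against 589. The count of called probe sets was 615 without P60_TR_1, 709 without P4_TR_2, 862 without P4_TR_1, 1221 without P60_TR_2 (222 of them lower) and 1950 without P4_TR_3. 346 probe sets, 246 higher and 100 lower, were called with each of the 5 arrays left out in turn. The count was 90 when the Trembler arrays were fitted alone and 30 when each scan day had its own term in the fit.

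Wild type nerve showed 1638 called probe sets over the same ages (14.9%), or 1076 without P4_WT_2. 717 probe sets were called in both, which is 54.1% of the Trembler calls and 43.7% of the wild type calls, and 715 of them moved in the same direction. Of the 1321 Trembler calls, 1256 (95.1%) had the same sign in wild type. Over all tested probe sets the 2 sets of log2 changes had a Pearson r of 0.711. This is a correlation across probe sets of arrays normalized together, and probe sets are not independent replicates.

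**Figure D1:**
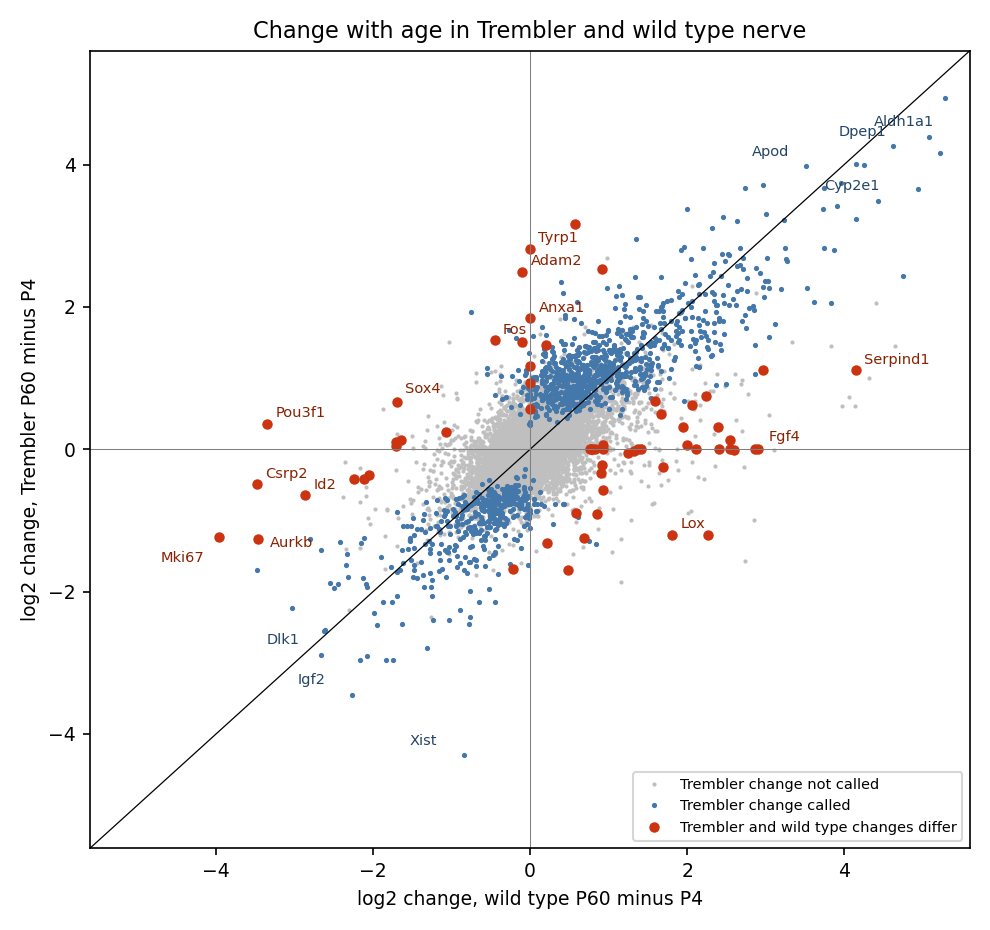
Log2 change from P4 to P60 of each tested probe set in wild type nerve (horizontal) and Trembler nerve (vertical), with the line of equal change. Red points are the 62 probe sets whose change differed between the genotypes, and blue points are those called in Trembler that are not among the 62. Some of the named genes are labelled. The blue points follow the line, which is in part by construction because the called differences are drawn in red. Most red points lie near 0 on the Trembler axis.

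Several of the large falls that the naming rule selected were in growth factors and imprinted genes of the fetus and newborn. Igf2, the imprinted fetal growth factor, read 7179, 5994 and 6314 at P4 and 597 and 588 at P60. It fell by 3.45 ± 0.29 on the log2 scale (adjusted p = 1.37e-06), where wild type fell by 2.27 ± 0.26. Dlk1, an imprinted transmembrane protein that holds back adipocyte differentiation, read 582, 700 and 2488 at P4 and 145 and 127 at P60, a fall of 2.89 ± 0.40 (adjusted p = 0.000201). The third P4 array stood far above the other two for Dlk1, and the fall kept its call without it. Peg3, an imprinted zinc finger gene, fell from 1901, 1465 and 1489 to 323 and 231 (−2.56 ± 0.25, adjusted p = 8.23e-06), and its brighter probe set fell by 1.12 ± 0.17. Fbn2, the fibrillin of fetal microfibrils, read 314, 268 and 388 at P4 and lay at the floor on both P60 arrays, a fall of at least 2.54 ± 0.28 (adjusted p = 2.1e-05). Meg3, an imprinted noncoding RNA, fell by 2.47 ± 0.49 on its dimmer probe set (adjusted p = 0.00347), while the brighter one gave −0.96 ± 0.33 and was not called (adjusted p = 0.0667).

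Of the 22 measured genes of the imprinted and fetal growth list, 9 fell and 0 rose. Over the 7703 genes measured 3.99% fell and 8.54% rose. These shares stand beside the Trembler count of every list below. For wild type the shares were taken over the tested probe sets, of which 10.5% rose and 4.39% fell. The median log2 change of the list was −0.53 in Trembler and −0.52 in wild type, against 0.03 over all genes in both. Cdkn1c, the imprinted inhibitor of cyclin-dependent kinases, was among the brightest members, with 6011, 4939 and 5513 at P4 and 1363 and 1777 at P60. It fell by 1.81 ± 0.23 (adjusted p = 9.04e-05). Plagl1, an imprinted zinc finger gene, read 186, 121 and 285 at P4 and 60.3 and 11.1 at P60 (−1.70 ± 0.37, adjusted p = 0.00669). 6 of the 9 kept their call with each Trembler array left out in turn.

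Other genes with large falls came from several processes. Pdia4, a disulfide isomerase of the endoplasmic reticulum, fell from 431, 633 and 688 to 99.3 and 42.9 (−2.96 ± 0.47, adjusted p = 0.000559). Dach1, a nuclear cofactor of transcription, fell from 759, 1003 and 1017 to 179 and 78.2 (−2.96 ± 0.37, adjusted p = 6.75e-05). Both fell in wild type too, by 2.17 ± 0.42 and 1.84 ± 0.33. Igfbp3, which binds insulin-like growth factors in the circulation and tissues, fell by 2.4 ± 0.50 and Sncb (beta-synuclein) by 2.4 ± 0.40. Lgr5, a receptor for R-spondins, lay at the floor on both P60 arrays after 320, 203 and 412 at P4, a fall of at least 2.45 ± 0.31. Mpdz, a scaffold protein with many PDZ domains, fell from 1557, 2264 and 1324 to 349 and 304 (−2.36 ± 0.51, adjusted p = 0.00645), where wild type gave −0.76 ± 0.46. The difference between the genotypes was not called for Mpdz (adjusted p = 0.552), nor for any other gene selected as a largest rise or fall in Trembler.

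Cdkn1a, the p53-regulated inhibitor of cyclin-dependent kinases known as p21, gave unlike values on its 2 probe sets. The first read 1764, 1495 and 1627 at P4 and 322 and 273 at P60, a fall of 2.45 ± 0.32 (adjusted p = 0.000124). The brighter one over all arrays read 812, 728 and 1041 at P4 and 1370 and 1116 at P60, a change of 0.54 ± 0.21 that was not called (adjusted p = 0.0991). The 2 probe sets therefore give no single direction for this gene.

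The largest rises were in enzymes, secreted proteins and immune genes, several of them at the floor at P4. Aldh1a1, an enzyme of retinoic acid synthesis, lay at the floor on all 3 P4 arrays and read 1705 and 772 at P60, a rise of at least 4.39 ± 0.25 (adjusted p = 2.33e-08). Its relative Aldh1a3 rose from 77.4, 83.5 and 132 to 1385 and 695 (3.37 ± 0.33, adjusted p = 9.44e-06). Dpep1, a membrane dipeptidase, rose from 37.2, 14.7 and 57.5 to 1490 and 758 (4.26 ± 0.34, adjusted p = 8.83e-07). On these 3 transcripts the first P60 array stood above the second, and both stood above the P4 arrays. Cyp2e1, a cytochrome P450 of ethanol and fatty acid oxidation, rose from 254, 220 and 222 to 2604 and 2603 (3.49 ± 0.42, adjusted p = 4.74e-05). Ace, the angiotensin-converting enzyme, rose by 3.42 ± 0.37 and Cdo1, which degrades cysteine, by 3.38 ± 0.42. Apod, a lipocalin that carries small lipids and is made by Schwann cells and fibroblasts of nerve, rose from 473, 200 and 194 to 5203 and 3323 (3.98 ± 0.51, adjusted p = 0.0001). All of these also rose in wild type, with the lowest wild type log2 change in Aldh1a3 (2.00 ± 0.30) and the highest in Aldh1a1 (at least 5.08 ± 0.22).

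**Figure D2:**
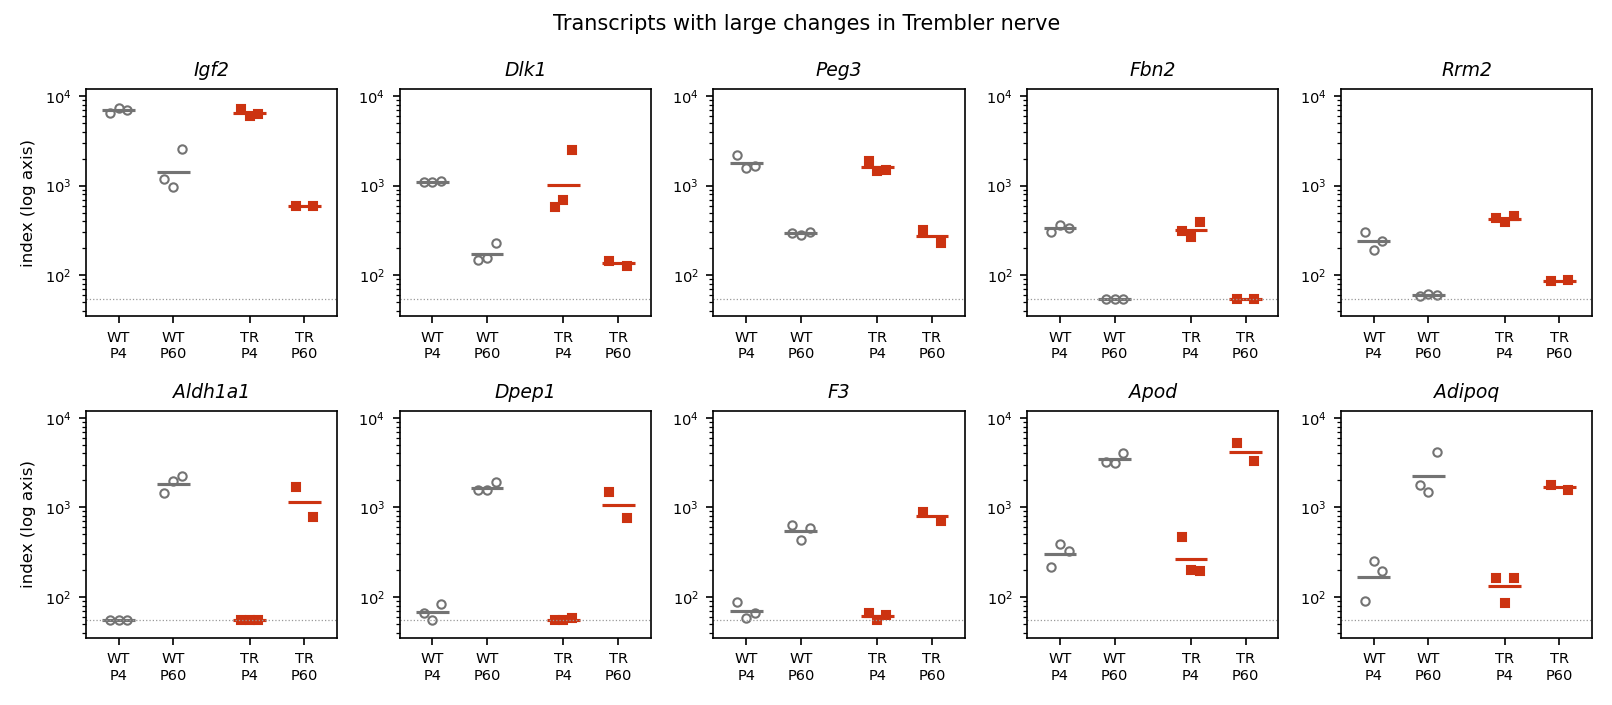
Index of 10 transcripts on a log axis at P4 and P60 in wild type and Trembler nerve, one point per array with values raised to the floor, bars for group means and a dotted line for the floor. The 5 transcripts that fell (Igf2, Dlk1, Peg3, Fbn2, Rrm2) and the 5 that rose (Aldh1a1, Dpep1, F3, Apod, Adipoq) moved the same way in both genotypes.

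Part of the genes of cell division fell. Of 74 measured genes of cell cycle and DNA replication, 26 fell and 0 rose, and the median log2 change was −0.54. In wild type 35 fell and 1 rose, with a median of −0.69. Rrm2, the small subunit of ribonucleotide reductase, which makes the nucleotides of DNA, read 433, 391 and 457 at P4 and 85.1 and 88.0 at P60, a fall of 2.30 ± 0.40 (adjusted p = 0.00119). Hmgb2, a chromatin protein of dividing cells, fell from 582, 375 and 722 to 143 and 92.0 (−2.23 ± 0.34, adjusted p = 0.000364). Cdc25c, the phosphatase that starts mitosis, fell from 216, 139 and 266 to 62.6 and 49.7 (−1.77 ± 0.25, adjusted p = 0.000221). Mcm7, part of the helicase that opens replication origins, fell by 1.34 ± 0.20, Cenpa, the histone of the centromere, by 1.40 ± 0.27, and Kif11, the motor of spindle assembly, by 2.07 ± 0.42. These 6 genes, Cdk1 and Stmn1 kept their call with each Trembler array left out in turn. The count of the list was 10 without P60_TR_2 and 18 to 24 without each of the other Trembler arrays. The summed index over the list was 25660 on P60_TR_2 and 31493 on P60_TR_1, 34341 to 48904 at P4, and 22757 to 23440 in P60 wild type.

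Several mitotic genes read higher on both P60 Trembler arrays than on any P60 wild type array. Cdk1, the kinase of mitosis, read 858, 632 and 1033 at P4 and 328 and 196 at P60 in Trembler, a fall of 1.70 ± 0.30 (adjusted p = 0.00127). In wild type it went from 560, 543 and 746 to 36.1, 34.4 and 55.5, a fall of 3.47 ± 0.27, but the difference of 1.77 ± 0.40 was not called (adjusted p = 0.0584). Ccnb2, the cyclin partner of Cdk1, fell by 1.26 ± 0.26 from 641, 455 and 851 to 339 and 204 (adjusted p = 0.00528, and 0.0024 to 0.0745 over the arrays left out, the last without P60_TR_2). Its difference from wild type, 1.54 ± 0.35, was not called either (adjusted p = 0.0663). Mki67, the Ki-67 antigen of dividing cells, read 1294, 817 and 1690 at P4 and 753 and 356 at P60 in Trembler (−1.23 ± 0.34, adjusted p = 0.0259), and the call was lost without P4_TR_1, P4_TR_3 or P60_TR_2 (range 0.013 to 0.271). In wild type Mki67 fell from 959, 971 and 1335 to 75.2, 49.6 and 78.8, and here the difference of 2.74 ± 0.46 was called (adjusted p = 0.00625, at most 0.0488 with any 1 array left out). Aurkb, the Aurora kinase of cytokinesis, differed by 2.21 ± 0.46 (adjusted p = 0.0331), a call that was lost with the omission of any of 9 of the 11 arrays (up to 0.105). Top2a, the topoisomerase of dividing cells, fell by 1.80 ± 0.42 in Trembler (adjusted p = 0.011, and 0.147 without P60_TR_2) and its difference from wild type was 0.52 ± 0.57. Of the 74 members 2, Mki67 and Aurkb, were called higher against wild type and 1, Stmn1, lower.

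Stmn1, which binds free tubulin and is counted here with the cell cycle genes, moved the other way between the genotypes. It fell from 2660, 2251 and 3035 to 1446 and 856 in Trembler (−1.24 ± 0.22, adjusted p = 0.00162) and rose from 2894, 2465 and 3204 to 5232, 4907 and 3699 in wild type (0.68 ± 0.20). The difference was −1.93 ± 0.30 (adjusted p = 0.00318, at most 0.0195 with any 1 array left out).

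**Figure D3:**
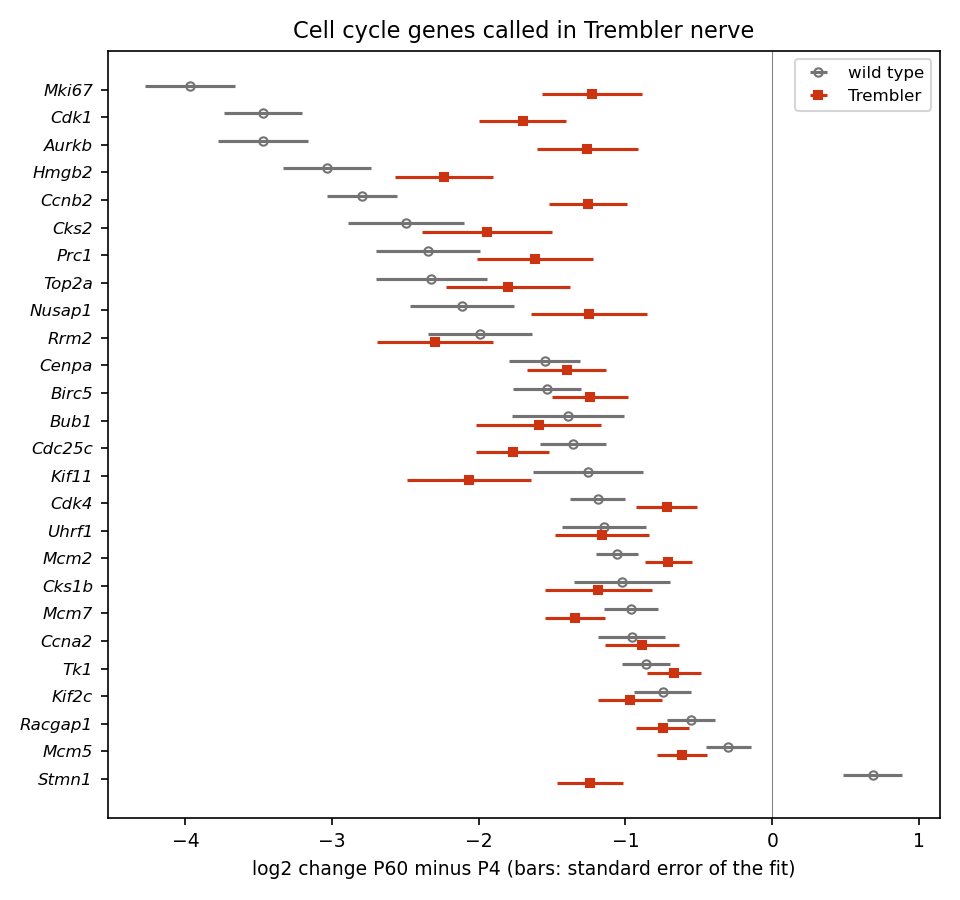
Log2 change from P4 to P60 of the cell cycle genes called in Trembler nerve, with the wild type change beside each and bars for the standard error of the fit. All Trembler points lie below 0; the differences called between the genotypes are those of Mki67 and Aurkb, lower in wild type, and Stmn1, which lies above 0 in wild type.

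The promoters of Ccnb2 and Cdk1 are printed because they carry the motifs searched for in the genes that fell. In the RefSeq table of GRCm38.p6 promoters, each window runs from 250 bases before to 50 bases after the start site. The motifs were CCAAT, the word bound by NF-Y, and TTTGAA, the core of the cell cycle genes homology region, both on either strand. Ccnb2 lies on the minus strand at chr9:70421505-70421804 and Cdk1 on the minus strand at chr10:69352863-69353162. Capitals mark the matches, which read ATTGG where CCAAT is on the other strand, and 0 of them overlap.
Ccnb2: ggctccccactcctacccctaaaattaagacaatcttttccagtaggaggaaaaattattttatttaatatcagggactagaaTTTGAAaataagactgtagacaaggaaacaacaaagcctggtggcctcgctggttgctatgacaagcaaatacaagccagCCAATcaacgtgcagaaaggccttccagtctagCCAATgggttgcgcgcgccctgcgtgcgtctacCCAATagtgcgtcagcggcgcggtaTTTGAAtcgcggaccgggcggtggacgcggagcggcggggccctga
Cdk1: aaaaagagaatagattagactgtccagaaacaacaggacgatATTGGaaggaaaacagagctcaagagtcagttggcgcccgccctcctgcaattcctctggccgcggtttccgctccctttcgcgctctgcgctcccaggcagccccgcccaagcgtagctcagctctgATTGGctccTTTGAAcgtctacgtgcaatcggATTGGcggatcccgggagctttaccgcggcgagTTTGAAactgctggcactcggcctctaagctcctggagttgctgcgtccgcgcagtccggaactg
Each window held 3 CCAAT and 2 TTTGAA matches. Of the 26 cell cycle genes that fell, 22 had a window. CCAAT stood in 17 of these (77.3%), TTTGAA in 12 (54.5%) and both in 11 (50%). Among the measured members of the list with a window the shares were 39 of 60 (65.0%), 25 of 60 (41.7%) and 21 of 60 (35%). Over all 27025 genes with a window they were 41.1%, 20.2% and 7.97%. A match is a description of these letters and was not tested as a site.

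Of 18 measured inhibitors of the cell cycle, 4 rose (2 without P4_TR_2 or P60_TR_1) and 1 fell. Cdkn2b, the inhibitor p15 that is induced by TGF-beta, lay at the floor at P4 and read 179 and 158 at P60, a rise of at least 1.62 ± 0.17 (adjusted p = 1.19e-05). Tob1, an antiproliferative protein, rose from 256, 122 and 352 to 776 and 856 (1.87 ± 0.39, adjusted p = 0.00469). The member that fell was the imprinted Cdkn1c.

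Part of the cholesterol synthesis genes fell. Of 17 measured enzymes and regulators, 8 fell and 1 rose, with a median log2 change of −0.78 in Trembler and −0.32 in wild type, where 4 fell and 1 rose. Hmgcs1, which makes the precursor HMG-CoA, read 1049, 1124 and 1190 at P4 and 480 and 450 at P60, a fall of 1.27 ± 0.28 (adjusted p = 0.00806). Wild type read 3604, 3466 and 3690 at P4 and 2486, 2134 and 2389 at P60, so that all Trembler arrays lay below all wild type arrays at both ages. The change in wild type was −0.62 ± 0.25, and the difference of the changes was not called (adjusted p = 0.736). Hmgcs1 alone of the 8 kept its call with each Trembler array left out. Fdps, which makes farnesyl diphosphate, fell from 1065, 1156 and 888 to 334 and 162 (−2.15 ± 0.55, adjusted p = 0.017, range 0.0205 to 0.14, lost without P4_TR_2 or P60_TR_2). Idi1, the isomerase of isopentenyl diphosphate, fell from 1437, 1425 and 1801 to 887 and 802 (−0.87 ± 0.20, adjusted p = 0.0091, and 0.057 without P60_TR_2). Ebp, a sterol isomerase, rose from 207, 166 and 289 to 756 and 419 (1.39 ± 0.30, adjusted p = 0.00575, and 0.119 without P60_TR_1). The number that fell was 2 without P60_TR_2, 4 without P60_TR_1 and 5 without P4_TR_2, and no member of the list differed from wild type by the test of the difference.

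The promoter of Hmgcs1 is printed with matches to TCACNCCAC, a word found in sterol response elements, and to CCAAT. It lies on the plus strand of GRCm38.p6 at chr13:119690101-119690400, from the RefSeq table, and the window follows the same rule.
Hmgcs1: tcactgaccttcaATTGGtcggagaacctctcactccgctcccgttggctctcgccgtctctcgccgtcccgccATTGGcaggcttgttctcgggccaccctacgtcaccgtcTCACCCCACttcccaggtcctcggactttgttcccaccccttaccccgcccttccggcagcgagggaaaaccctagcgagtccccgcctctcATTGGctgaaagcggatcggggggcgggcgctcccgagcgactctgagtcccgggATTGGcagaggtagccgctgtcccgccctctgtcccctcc
It held 1 match to TCACNCCAC and 4 to CCAAT, and 0 of them overlap. TCACNCCAC stood in 1.44% of all windows, counted by gene. Of the 17 cholesterol genes measured, 14 had a window. All 14 held CCAAT, among them the 6 with a window that fell, against 41.1% of all genes. TCACNCCAC stood in 1 of the 14, Hmgcs1.

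Genes of fatty acid and lipid synthesis moved in both directions. Of 24 measured genes 7 rose (4 without P4_TR_2) and 3 fell (0 to 2 with any 1 Trembler array left out), with a median log2 change of 0.36 against 0.32 in wild type. Scd1, the desaturase that makes oleic acid, read 1972, 1779 and 1705 at P4 and 5441 and 4637 at P60, a rise of 1.47 ± 0.15 (adjusted p = 1.19e-05). Wild type Scd1 read 4711, 4971 and 4555 at P4 and 5700, 4394 and 6452 at P60. The Trembler P4 arrays lay below every wild type array, and the P60 arrays lay within the wild type range. The difference of the changes was called, at 1.27 ± 0.20 (adjusted p = 0.00384, at most 0.0341 with any 1 array left out). Thrsp, a regulator of lipogenesis, lay at the floor at P4 and read 930 and 581 at P60, a rise of at least 3.75 ± 0.38. Me1, the malic enzyme that supplies NADPH, rose by 1.89 ± 0.32 and Fasn, the fatty acid synthase, by 0.92 ± 0.23, the latter not called without P4_TR_2 or P60_TR_1 (adjusted p = 0.0163, range 0.00689 to 0.161). Elovl6, a fatty acid elongase, fell by 0.79 ± 0.20 (adjusted p = 0.0158, range 0.0212 to 0.09), and Ugt8a, which makes the galactolipids of myelin, by 1.07 ± 0.34 (adjusted p = 0.0467), a call lost with any 1 Trembler array left out (range 0.0766 to 0.207).

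Adipocyte genes rose beside these. Of 24 measured adipocyte genes 10 rose and 0 fell, with a median log2 change of 0.50 against 0.38 in wild type. Adipoq (adiponectin), the hormone of fat cells, rose from 161, 85.7 and 164 to 1790 and 1570 (3.67 ± 0.56, adjusted p = 0.000386). Fabp4, the fatty acid carrier of fat cells, rose from 527, 368 and 534 to 1451 and 1452 (1.63 ± 0.21). Lipe, the hormone-sensitive lipase, rose by 1.5 ± 0.17 and Rbp4, the carrier of retinol, by at least 2.80 ± 0.50. Pparg lay at the floor on all 5 Trembler arrays. The summed index of the list was 8902 to 10197 at P4 and 23360 and 19826 at P60 in Trembler, and 21500 to 33190 in P60 wild type. The part of fat around the nerve in the changes of lipid genes was not tested. Without P60_TR_1, 6 members rose.

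Of 10 measured myelin protein genes 1 rose and 0 fell, and the median log2 change was −0.25 against −0.11 in wild type. Over all genes 8.54% rose and 3.99% fell, and the counts of the list lie near these shares. The member that rose was Ndrg1, a Schwann cell protein needed to keep myelin, which went from 4019, 4203 and 3997 to 6288 and 5527 (0.53 ± 0.14, adjusted p = 0.0191, range 0.0302 to 0.17, lost without P4_TR_1 or P60_TR_1). It had the same direction in wild type, with 0.59 ± 0.12. The change of Mbp was −0.38 ± 0.13 (adjusted p = 0.0668) in Trembler and −0.09 ± 0.12 in wild type. Mag, the adhesion protein of the innermost myelin membrane, read 317, 240 and 512 at P4 and 212 and 188 at P60 in Trembler (−0.77 ± 0.36, adjusted p = 0.174), and fell in wild type by 1.36 ± 0.32. At P4 each Trembler array of Mag lay below the 3 wild type arrays (592, 565 and 646).

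Among 34 measured transcription regulators of Schwann cells 4 rose and 2 fell, with a median log2 change of 0.24 against 0.01 in wild type. Over all genes 8.54% rose and 3.99% fell, and the counts of the list lie near these shares. The number that rose was 2 without P4_TR_2, P60_TR_1 or P60_TR_2 and 8 without P4_TR_3, and 1 fell without P60_TR_1. Egr2, the master regulator of myelination, read 3781, 3330 and 4159 at P4 and 3716 and 3864 at P60. Its groups overlapped, and the change was 0.02 ± 0.20 (adjusted p = 0.982). Sox10, which acts in all stages of the lineage, read 1121, 641 and 1130 at P4 and 1594 and 1532 at P60 (0.74 ± 0.23, adjusted p = 0.0453, range 0.0223 to 0.189, lost without P4_TR_2, P60_TR_1 or P60_TR_2). Sox2, a factor of immature Schwann cells, rose from 1198, 710 and 1167 to 1887 and 2294 (1.06 ± 0.27, adjusted p = 0.0174, range 0.0144 to 0.104), and lost its call without the same 3 arrays. In wild type Sox2 gave −0.54 ± 0.24, and the difference of 1.61 ± 0.37 was not called (adjusted p = 0.0632). Id3, an inhibitor of helix-loop-helix factors, rose from 89.0, 67.7 and 81.2 to 239 and 232 (1.58 ± 0.29, adjusted p = 0.0017), and the wild type rose by 1.28 ± 0.26. Sox11, a factor of precursor cells, read 140, 162 and 182 at P4 and lay at the floor at P60, a fall of at least 1.55 ± 0.23 (adjusted p = 0.000328), as in wild type (at least 1.15 ± 0.21). Jun, which is known to drive the repair state after injury, gave −0.29 ± 0.16 (adjusted p = 0.274).

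Of 27 genes of the immature, non-myelinating or injured Schwann cell 6 rose and 5 fell. The number that rose was 3 without P4_TR_2 and 2 without P60_TR_1, and the number that fell was 3 without P4_TR_1 and 1 without P60_TR_2. Gap43, a growth cone protein also made by immature Schwann cells, read 268, 192 and 210 at P4 and 92.3 and 39.7 at P60, a fall of 1.64 ± 0.32 (adjusted p = 0.00283). Gas6, a ligand of the Axl family of receptors, rose from 49.4, 20.1 and 81.5 to 285 and 319 (2.27 ± 0.46, adjusted p = 0.00422). Itgb4, the integrin subunit by which Schwann cells hold the basal lamina, rose from 220, 91.7 and 275 to 1157 and 1365 (2.83 ± 0.32, adjusted p = 2.74e-05), beside 2.67 ± 0.29 in wild type. It was the 1 member of 25 in the basal lamina list that rose, and 2 fell, among them Hspg2 (perlecan), a proteoglycan of the basal lamina, by 1.05 ± 0.20 (adjusted p = 0.00237).

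The change with age was tested against that of wild type for every probe set, and 62 differed (0.564%). For 24 (0.218%) the Trembler change was the higher, and for 38 (0.346%) the lower. This balance turned with 1 array: 56 were higher and 31 lower without P60_TR_2, and 16 higher and 48 lower without P60_TR_1. 887 had an unadjusted p under 0.05. 27 of the 62 rose in wild type and were not called in Trembler, 10 fell in wild type and were not called in Trembler, and 10 rose in Trembler and were not called in wild type. Of the rest 6 rose in both, 3 fell in both, 4 fell in Trembler and were not called in wild type, and 2 fell in Trembler and rose in wild type. 35 of the 62 stayed called with each of the 11 arrays left out in turn.

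Several regulators among them fell in wild type and in Trembler either fell less or did not pass the test. Pou3f1, the factor of promyelinating Schwann cells also known as Oct6, read 980, 569 and 1270 at P4 and 916 and 1428 at P60 in Trembler, with overlapping groups (0.36 ± 0.42, adjusted p = 0.637). In wild type it went from 575, 635 and 1116 to 21.8, 130 and 37.6, a fall of 3.35 ± 0.38, and the difference was 3.71 ± 0.57 (adjusted p = 0.00318). Id2, an inhibitor of helix-loop-helix factors, read 2534, 2615 and 2720 at P4 and 1557 and 1821 at P60 in Trembler (−0.64 ± 0.16, adjusted p = 0.0142, and 0.142 without P60_TR_1). Wild type Id2 fell by 2.86 ± 0.14, from 1764, 1600 and 2178 to 239, 240 and 278, a difference of 2.23 ± 0.21 (adjusted p = 1.93e-05). Sox4, a factor of immature Schwann cells, read 942, 861 and 1476 at P4 and 1535 and 1856 at P60 in Trembler (0.67 ± 0.26, adjusted p = 0.108) and fell by 1.70 ± 0.23 in wild type. Its difference was 2.37 ± 0.35 (adjusted p = 0.00297). Csrp2, a LIM domain protein of smooth muscle and glia, read 3964, 3749 and 3731 at P4 and 2919 and 2528 at P60 in Trembler (−0.49 ± 0.34, adjusted p = 0.375), while wild type fell from 3506, 2452 and 3169 to 247, 209 and 384. The difference of 2.99 ± 0.45 was called (adjusted p = 0.00299). The differences of these 4 genes stayed called with each array left out in turn, with the highest adjusted p at 0.0192. None of the 4 stayed called with scan day as a fixed block (adjusted p 0.0585 to 0.368). As a random block, scan day left all 4 called (adjusted p at most 0.00305). In the other Pmp22 genotypes the log2 changes were −0.30 in null and 0.49 in transgenic nerve for Pou3f1, −2.64 and 0.15 for Csrp2, −1.61 and −0.74 for Id2, and 0.20 and −0.48 for Sox4. The change in Trembler was not called different from that in transgenic nerve for any of the 4 (limma adjusted p 0.147 to 0.964, and down to 0.0419 for Sox4 with 1 array left out). From null nerve it was called different for Csrp2 (adjusted p = 0.0272) and Id2 (adjusted p = 0.0311), each lost without any 1 of 6 arrays, P60_KO_2 and P60_TR_1 among them. Fos, an immediate early gene, rose in Trembler from 712, 509 and 516 to 1809 and 1525 (1.54 ± 0.27) and gave −0.45 ± 0.24 in wild type, a difference of 1.99 ± 0.36 (adjusted p = 0.0108, and 0.0625 without P60_TR_1).

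**Figure D4:**
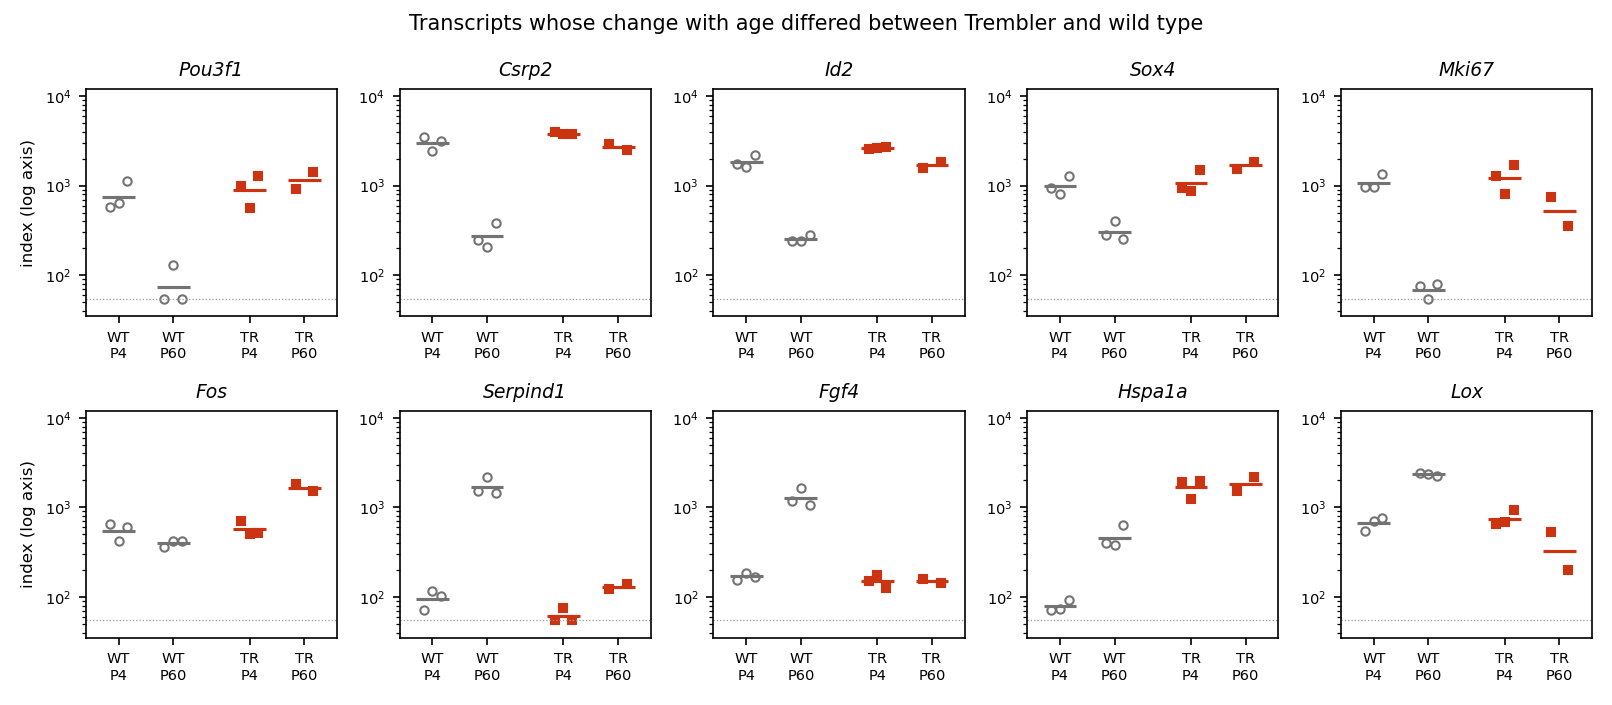
Index on a log axis at P4 and P60 in wild type and Trembler nerve for 10 transcripts whose change with age differed between the genotypes, one point per array raised to the floor, bars for group means and a dotted line for the floor. Csrp2, Id2 and Mki67 drop further in wild type than in Trembler. Pou3f1 and Sox4 drop in wild type and show no called change in Trembler. Fos rises in Trembler, and Serpind1, Fgf4, Hspa1a and Lox climb in wild type with a smaller or no called rise in Trembler.

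3 other transcripts with a higher change in Trembler rested on fewer arrays. Tyrp1, an enzyme of melanosomes, read 134, 35.2 and 39.0 at P4 and 803 and 337 at P60 in Trembler and lay at the floor on all 6 wild type arrays. Its difference was 2.82 ± 0.55 (adjusted p = 0.0204), and it was lost without any of 5 arrays (up to 0.117). Adam2, a surface protein of sperm, rose from 94.0, 61.4 and 132 to 479 and 553, a difference of 2.60 ± 0.57 (adjusted p = 0.0478, up to 0.138). Anxa1, a phospholipid-binding protein, read 345 and 116 at P60 and lay at the floor at P4 on 2 of the 3 arrays, a difference of 1.84 ± 0.38 (adjusted p = 0.0303, up to 0.0797). Wild type Anxa1 lay at the floor on all 6 arrays, so no fold is given there. Tyrp1 also rose in null (1.40 ± 0.41) and transgenic nerve (at least 3.81 ± 0.41), Adam2 in null nerve (1.74 ± 0.42) and Anxa1 in transgenic nerve (at least 1.21 ± 0.28). The change in Trembler was not called different from that in transgenic nerve for any of the 3 (limma adjusted p 0.273 to 0.536). From null nerve it was called different for Anxa1 (adjusted p = 0.0267), which was lost without P60_KO_2 or P60_TR_1, among others.

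In the other direction, several transcripts rose in wild type and in Trembler either rose less or were not called. Serpind1 (heparin cofactor II), an inhibitor of thrombin, rose by 4.15 ± 0.24 in wild type to 1528, 2160 and 1429. In Trembler it read 17.8, 74.3 and 27.2 at P4 and 122 and 140 at P60 (1.11 ± 0.27, adjusted p = 0.0123, range 0.0139 to 0.0693, lost without either P60 array), and the difference was −3.04 ± 0.36 (adjusted p = 0.000283). Fgf4, a fibroblast growth factor, read 149, 177 and 125 at P4 and 157 and 141 at P60 in Trembler, with overlapping groups, against 155, 187 and 168 and then 1191, 1630 and 1051 in wild type. The difference was −2.91 ± 0.27 (adjusted p = 1.52e-05). Frzb, a secreted antagonist of Wnt signalling, Slc22a2, a transporter of organic cations, and Adcy8, an adenylyl cyclase, lay at the floor on all 5 Trembler arrays and on the 3 wild type arrays at P4. At P60 wild type read 356, 434 and 414 for Frzb, 312, 397 and 261 for Slc22a2, and 216, 311 and 199 for Adcy8. The fitted differences were −2.87 ± 0.39, −2.54 ± 0.18 and −2.12 ± 0.26, with adjusted p at most 0.00117. They set the wild type rise against Trembler values that were not measured above the floor at either age. A2m, a broad protease inhibitor, read 347, 337 and 254 in P60 wild type and no more than 58.0 on any Trembler array (difference −2.41 ± 0.18). Myo1d, an unconventional myosin, gave −2.07 ± 0.36, and Cma2, a mast cell chymase, −2.60 ± 0.56 (adjusted p = 0.046, up to 0.164). Lox, the lysyl oxidase that crosslinks collagen, read 660, 690 and 924 at P4 and 536 and 199 at P60 in Trembler and rose by 1.81 ± 0.36 in wild type. Its difference of −3.01 ± 0.54 (adjusted p = 0.0108) was not called without P60_TR_2 (adjusted p = 0.0683) nor on a second Lox probe set (−2.17 ± 0.55, adjusted p = 0.108). In null and transgenic nerve the log2 changes were 2.91 and 1.22 for Serpind1, 2.01 and 0.65 for Fgf4, and 1.15 and −1.34 for Lox. Slc22a2 rose by at least 1.68 in null nerve and lay at the floor on all transgenic arrays. Frzb rose by at least 1.16 in transgenic nerve. Against transgenic nerve none of these genes passed the test (Lox by its first probe set). Against null nerve Fgf4 and Slc22a2 passed with any 1 array left out, and Serpind1, Lox and A2m lost their call without P60_KO_2.

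The inducible Hsp70 genes were already high in Trembler at P4. Hspa1a read 1933, 1242 and 1990 at P4 and 1543 and 2209 at P60, with overlapping groups (0.13 ± 0.26, adjusted p = 0.8). Wild type read 71.0, 73.9 and 92.0 at P4 and 396, 385 and 628 at P60, a rise of 2.54 ± 0.24, and the difference was −2.41 ± 0.35 (adjusted p = 0.00277). Hspa1b read 4382, 4338 and 4389 at P4 and 3224 and 4226 at P60 in Trembler, where wild type rose from 365, 450 and 334 to 1065, 1173 and 1504. The difference was −1.94 ± 0.34 (adjusted p = 0.00943, and 0.0625 without P60_TR_1). Both genes encode the same protein or nearly so, and their probe sets can share signal. Hspa1a and Hspa1b were the members of the list of 29 cytosolic chaperones whose change differed from wild type.

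Part of the genes of antigen presentation and of macrophages rose with age. Of 39 genes of antigen presentation and the interferon response 16 rose and 1 fell in Trembler, with a median log2 change of 0.77, and in wild type 26 rose and 1 fell, with a median of 0.95. H2-Aa, a chain of MHC class II, lay at the floor at P4 and read 1259 and 603 at P60, a rise of at least 3.99 ± 0.51 (adjusted p = 9.04e-05). Cd74, the invariant chain, rose from 140, 90.6 and 159 to 1183 and 677 (2.82 ± 0.45, adjusted p = 0.000631), and H2-Eb1, another class II chain, from 163, 193 and 176 to 666 and 783 (2.03 ± 0.29, adjusted p = 0.000221). H2-K1, a chain of class I, rose from 626, 464 and 680 to 1732 and 1766 (1.59 ± 0.23, adjusted p = 0.000268), and Psmb8, a subunit of the immunoproteasome, by 2.65 ± 0.33. Without P60_TR_1, 10 members rose.

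Of 43 macrophage genes 16 rose and 0 fell in Trembler, and 8 rose and 0 fell in wild type. The median log2 changes were 0.54 and 0.33. Ccr2, the chemokine receptor of monocytes, rose from 123, 62.8 and 108 to 1060 and 622 (3.10 ± 0.48, adjusted p = 0.000471). Lyz2, the lysozyme of myeloid cells, rose from 100, 28.9 and 104 to 964 and 613 (3.21 ± 0.51, adjusted p = 0.000607), and the chemokine Ccl6 from 256, 210 and 285 to 1682 and 1035 (2.41 ± 0.40). Ctss, the cathepsin that trims the invariant chain, rose from 1072, 713 and 1018 to 2896 and 2293 (1.49 ± 0.30, adjusted p = 0.00444, and 0.0615 without P60_TR_1). Csf1r, the receptor that keeps macrophages alive, rose by 0.70 ± 0.22 (adjusted p = 0.0442), a call lost with any 1 Trembler array left out (range 0.0526 to 0.25). Adgre1 (F4/80) gave 1.05 ± 0.52 (adjusted p = 0.205) and Cd68 gave −0.15 ± 0.22 with overlapping groups. The summed index of the list was 11592 to 12793 at P4 and 24606 and 19492 at P60 in Trembler, and 17502 to 21970 in P60 wild type. Without P60_TR_1, 5 members rose, and without P4_TR_2, 10. No macrophage gene differed from wild type by the test of the difference. Of 21 genes of T and B lymphocytes 1 rose and 0 fell, the actin-binding Coro1a (0.90 ± 0.19, adjusted p = 0.00501, and 0.0692 without P60_TR_1). Of 20 genes of mast cells and granulocytes 0 rose and 1 fell, the neutrophil elastase Elane (−0.77 ± 0.21, adjusted p = 0.0253, range 0.00176 to 0.234, lost without P4_TR_1, P4_TR_2 or P60_TR_1). In wild type Cpa3 (1.68 ± 0.29), Hdc (at least 0.93 ± 0.09), Tpsb2 (0.82 ± 0.12) and Mcpt4 (at least 0.51 ± 0.09) rose. No other member of the list was called in wild type. Among these, the mast cell genes Tpsab1 (−0.31 ± 0.22), Mcpt1 (−0.31 ± 0.16), Cma1 (−0.07 ± 0.25) and Ms4a2 (0.16 ± 0.14) did not share the rise. Hdc gave 0.06 ± 0.10 in Trembler, near the floor and with overlapping groups. Its difference from wild type was called (−0.88 ± 0.14, adjusted p = 0.00318, at most 0.0151 with any 1 array left out). The differences of Cpa3, Tpsb2 and Mcpt4 were not called.

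Of 23 genes of complement and coagulation 8 rose and 0 fell, against 8 and 1 in wild type. 2 rose without P60_TR_1 and 4 without P4_TR_1 or P4_TR_2. F3 (tissue factor), the trigger of coagulation, rose from 66.1, 28.9 and 62.3 to 890 and 710 (3.71 ± 0.23, adjusted p = 7.31e-08). C1ra, a protease of the first complement component, rose from 169, 144 and 211 to 1017 and 867 (2.44 ± 0.26, adjusted p = 2.08e-05), and Cfhr2, a relative of complement factor H, by 3.31 ± 0.46. The probe sets of C1ra and Cfhr2 can take signal from related transcripts. Of 37 genes of lysosome and autophagy 7 rose and 0 fell, with a median of 0.57 against 0.38 in wild type. That count was 1 without P60_TR_1, 4 without P4_TR_1 or P4_TR_2 and 13 without P4_TR_3.

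Folding and stress genes of the endoplasmic reticulum moved in both directions, with 5 of 32 called higher (3 without P4_TR_2 and 8 without P4_TR_3), 3 called lower and a median log2 change of −0.04. Atf4, a translation-controlled factor of the stress response, fell from 1323, 1351 and 1384 to 620 and 585 (−1.17 ± 0.15, adjusted p = 0.000102), and in wild type by 0.65 ± 0.14. Ddit4, a stress-induced inhibitor of mTORC1, rose from 623, 414 and 797 to 2867 and 2022 (2.03 ± 0.22, adjusted p = 2.1e-05). Dnajb9, a cochaperone of the endoplasmic reticulum, rose from 403, 173 and 476 to 1205 and 1043 (1.80 ± 0.37, adjusted p = 0.00409). The last 2 rose in wild type as well, by 2.53 ± 0.20 and 1.47 ± 0.33.

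Markers of other cells of the nerve were counted in the same way. Of 32 fibroblast and perineurial genes 9 rose and 1 fell, with a median log2 change of 0.57 against 0.61 in wild type, and 3 rose without P60_TR_1. Lum, a proteoglycan of collagen fibrils, rose from 1700, 1472 and 2244 to 4248 and 3568 (1.13 ± 0.19, adjusted p = 0.000888), and Islr, a marker of fibroblasts, from 866, 662 and 948 to 1692 and 1867 (1.12 ± 0.23, adjusted p = 0.00511). Of 27 endothelial genes 6 rose and 0 fell, with a median of 0.28 against 0.62 in wild type, where 14 rose. Emcn (endomucin), a sialoprotein of capillaries and veins, rose from 230, 179 and 308 to 697 and 570 (1.43 ± 0.22, adjusted p = 0.000433). The endothelial count was 2 without P4_TR_2 and 3 without P60_TR_1. Of 51 skeletal muscle genes 1 rose and 0 fell, with a median of −0.24. The gene was Casq2, which stores calcium in muscle cells (1.48 ± 0.35, adjusted p = 0.0116, and 0.0968 without P60_TR_1). In wild type 12 muscle genes rose and 1 fell, and the summed index of the list was 41350 to 55492 on the P60 wild type arrays against 23710 and 21176 on the P60 Trembler arrays and 21211 to 29379 on the P4 Trembler arrays. The part of muscle RNA in the differences between the genotypes was not tested.

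**Figure D5:**
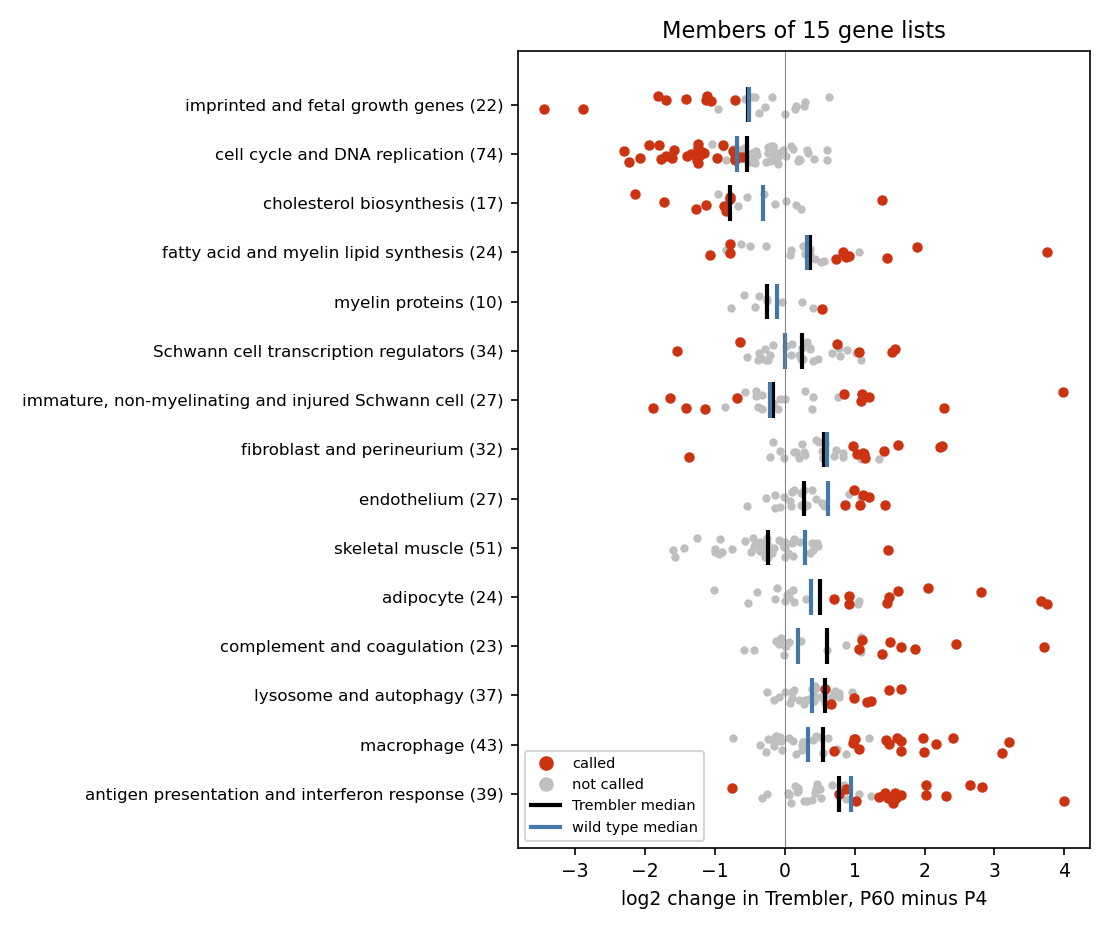
Log2 change from P4 to P60 in Trembler nerve of each measured member of 15 gene lists (number measured in brackets), red where called, with the Trembler median in black and the wild type median in blue. Red points lie to the left in the imprinted and cell cycle lists and to the right in the adipocyte and macrophage lists. In the cholesterol list they lie to the left except Ebp, and in the antigen presentation list to the right except 1. The black and blue medians lie apart in the cholesterol, skeletal muscle and endothelium lists, and by less in several others.

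Against the other Pmp22 genotypes the comparison was limited by single arrays. In Pmp22 null nerve 3179 probe sets changed with age (28.9%), and the change differed from Trembler for 373 (3.39%), a count that lay between 10 without P60_KO_2 and 1393 without P60_KO_1. All 8 genes that the rule named there (Psmb5, Fap, Fstl1 and Pnp higher in Trembler, and Xist, Gbp2b, Wnk1 and Rfc1 lower) lost their call without P60_KO_2. In Pmp22 transgenic nerve 1216 changed (11.1%), of which 808 rose (7.35%) and 408 fell (3.71%), and 132 differed from Trembler (1.2%), a count that lay between 15 without P60_TG_2 and 345 without P4_TR_3. Fbp1, the gluconeogenic fructose bisphosphatase, read 68.9, 72.2 and 34.5 at P4 and lay at the floor at P60 in Trembler, with overlapping groups, and rose by 4.31 on the log2 scale in transgenic nerve, a difference of −4.55 ± 0.31 (adjusted p = 5.52e-07). The first Cdkn1a probe set differed by −3.48 ± 0.46 (adjusted p = 0.00272). This probe set and Fbp1 stayed called with each array left out in turn. The brighter Cdkn1a probe set was not called different (−0.44 ± 0.29, adjusted p = 0.55). Of the other 6 named there, Ccl2 (2.87 ± 0.54) and Tyrobp (3.20 ± 0.68) were higher in Trembler, as were Hbb-b2 and Eef1b2, and Xist and Sncg were lower, and all 6 lost their call without P60_TG_2.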

How the data were processed

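Sciatic nerve RNA, pooled from 4 to 7 mice per sample, was measured on 21 Affymetrix arrays. Per the labels, the authors used dChip to normalize the arrays to one another (smoothing spline) and to compute the deposited model-based expression index, a linear intensity that takes some negative values. Per the labels, probe sensitivities came from 27 arrays (18 in 1 label), and the arrays beyond the 21 were not used here. The dChip version is not given in the sources used here. Scan days were taken from the headers of the deposited scanner run files. The station entry of the same headers was 2 on P4_TR_3 and P60_TR_2 and 1 on the other Trembler arrays. It entered no fit, and its part in the results was not tested. The remaining entries were not used.

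Values of the 12422 deposited probe sets were set to no less than 54.7 (their 20th percentile) before log2. Folds of dim probe sets are therefore understated. Testing took the 10994 that exceeded this floor on 2 or more arrays and left out 1428. A linear model with 8 group means was fitted with limma 3.58.1 (R 4.3.3; 13 residual degrees of freedom, eBayes with a trend), with Benjamini-Hochberg adjustment at 0.05 over all tested probe sets. Replicates are pools, and p-values cover the spread of pools, not of mice. Gene symbols are those of the platform annotation (10833 probe sets with 1 symbol, 396 with several, 1193 with none), of which 10817 matched RefSeq. Probe sets ending in _f_at, _s_at, _r_at, _i_at or _g_at can take signal from related transcripts.

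Named genes were Pmp22, the 14 highest and 14 lowest called changes in Trembler with no overlap of arrays, the 10 highest and 10 lowest called differences from wild type, 4 and 4 for each other genotype, and members of 31 gene lists, each by its brightest probe set. The members and lists were chosen with earlier results of these data known. Replicate numbers come from the titles, and nothing in the labels ties equal numbers to each other. The fit was tested on simulated data. Alternatives were other floors, filters, scalings, blocks, fits of fewer groups and arrays left out.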

Additional observations from a re-analysis of the deposited data

Results flagged for a closer look

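The 20 genes with the largest called differences between the change with age in Trembler nerve and that in wild type nerve are given because a test of the difference itself, the interaction contrast of the limma fit, passed its threshold. The values are log2 changes from P4 to P60 in Trembler minus those in wild type. The Trembler change was higher for Pou3f1 (3.71), Csrp2 (2.99), Tyrp1 (2.82), Mki67 (2.74), Adam2 (2.60), Sox4 (2.37), Id2 (2.23), Aurkb (2.21), Fos (1.99) and Anxa1 (1.84). It was lower for Serpind1 (−3.04), Lox (−3.01), Fgf4 (−2.91), Frzb (−2.87), Cma2 (−2.60), Slc22a2 (−2.54), Hspa1a (−2.41), A2m (−2.41), Adcy8 (−2.12) and Myo1d (−2.07). Groups of 2 or 3 arrays are too small to tell which array is an outlier. The calls of Tyrp1, Adam2, Aurkb, Fos, Anxa1, Lox and Cma2 were lost with some single array left out. The others stayed called with each array left out in turn. With scan day as a fixed block, only Slc22a2 (limma adjusted p = 0.0378) and A2m (0.0214) of the 20 stayed called. As a random block, scan day left all but Cma2 called (limma adjusted p = 0.0578).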

How the results depend on the processing

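Against the 1321 probe sets called in Trembler, 90 were called with the Trembler arrays fitted alone, 30 with scan day as a fixed block (19 of them among the 1321, 5 residual degrees of freedom), and 615 to 1950 with 1 Trembler array left out. In wild type 582 were called with scan day as a fixed block and 1076 to 1370 with 1 array left out. Against the 62 differences between Trembler and wild type, 14 were called with scan day as a fixed block (3 of them among the 62), 98 as a random block, 98 with P60_KO_2 left out of the shared fit, a setting chosen after seeing the data, and 42 to 87 with 1 array left out. Against the 373 differences from Pmp22 null nerve, the calls were 219 with no filter, 244 after quantile normalization, 29 when only those groups were fitted, 4 (0 of them among the 373) and 46 with fixed and random scan days, and 10 to 1393 with 1 array left out. Against the 132 differences from transgenic nerve, they were 78 with no filter, 27 with those groups alone, 46 with a random scan day and 15 to 345 with 1 array left out, and a fixed scan day could not be fitted there. With a replicate block the counts were 1658 for Trembler, 640 against null and 234 against transgenic nerve. The labels do not tie equal replicate numbers to each other. The deviations of the Trembler arrays correlated at −0.05 for number 1 and 0.36 for number 2, which with 2 arrays at P60 are not separate checks, so whether the numbers pair the arrays was not settled. Quantile normalization moved the median change of all tested probe sets by −0.05.

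Of the single genes, the dim Pmp22 probe set changed sign with scan day as a fixed (0.521) or random (0.0111) block. With the fixed block Hsd17b7 (0.0585) and Mag (0.366) did too. Egr2 gave −0.0509 after median scaling, −0.0513 after quantile normalization, −0.0227 with a replicate block and −0.0657 to 0.0946 with 1 Trembler array left out, and Cd68 gave −0.341 to 0.0191. The cause of these moves was not tested. The 2 arrays at P60 and the floor limit what dim transcripts can show.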
